A study of Rattus norvegicus with 16 samples.

Results

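Chemokines are small secreted proteins that draw leukocytes along a gradient, and they act through receptors of the G-protein-coupled kind on the cells that move. The family described here was taken from the count table of a rat kidney study as the protein-coding genes whose symbols begin with Ccl, Cxcl, Ccr, Cxcr, Cx3c, Xcl, Xcr or Ackr and that held at least 20 counts summed over all 16 libraries. Of the 32623 genes in the table, 56 symbols matched and 44 reached that minimum. They are 26 ligands, 14 signalling receptors and 4 atypical receptors (Ackr2, Ackr3, Ackr4 and Ccrl2). The 12 symbols below the minimum were Ccl1, Ccl11, Ccl12, Ccl25, Ccl26, Cxcl2, Cxcl3, Cxcl17, Ccr1l1, Ccr4, Ccr8 and Cxcr1, with 2 to 19 counts each over all libraries. Ccr2, the main receptor of Ccl2, and Ackr1 were not analysed here.

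In the kidney, chemokines are made by tubule cells, endothelium, fibroblasts and resident or arriving immune cells. Ligands are grouped by the spacing of their first cysteines into the CC, CXC, CX3C and C types, and most inflammatory ligands share receptors. A few pairs are close to exclusive, such as Cxcl16 with Cxcr6, Cxcl13 with Cxcr5, Cx3cl1 with Cx3cr1 and Xcl1 with Xcr1. Atypical receptors bind or clear chemokines without the usual G-protein signal.

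The study sequenced renal cortex RNA of young females, old females, young males and old males, 4 libraries for each group. Ages are labelled young or old without a number, all groups carry the unexplained genotype Homo, and all are marked as untreated. Diabetic kidney disease appears in the series title, yet none of the 16 libraries is labelled as diabetic, and the strain is not given. Whether libraries are separate animals is not stated, and the p-values therefore refer to differences among samples that may be technical repeats. Library totals ran from 10827485 to 35957516 counts. The chromosome Y genes Eif2s3y and Kdm5d had 0 counts in every female library and were present in every male library. Library names start with DS or OP without explanation: all young libraries carry DS, as do old female replicates 3 and 4 and old male replicate 4. The mean log2 CPM of inner medulla marker genes, a measure of the depth of the cut, was 4.85 to 6.19 in young females, 3.18 to 5.0 in old females, 2.93 to 4.02 in young males and 3.17 to 3.61 in old males.

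In old males, many chemokine ligands and most of the signalling receptors that could be tested were higher than in young males. A low-count filter left 37 of the 44 members to test, namely 24 of 26 ligands, 10 of 14 receptors and 3 of 4 atypical receptors. Of these 37, 22 rose and 2 fell in old against young males (edgeR quasi-likelihood test, Benjamini-Hochberg adjusted over all 14390 genes tested). The 22 are 59.5% of the tested members, where 25.3% of all tested genes rose. The 2 that fell are 5.41%, where 24.6% of all tested genes fell. The risers were 13 ligands and 9 of the 10 tested receptors. Ccr10, the other tested receptor, and the ligand Ccl24 were the members that fell. The median log2 fold change over the 37 was 1.51, beside -0.0028 over all genes tested, and 21 of the 22 risers rose at least 2-fold. Cxcl6, which had 0 counts in young males, lies above this median even at its lower bound, so its uncertain value cannot move the median. In 22 members every old male library lay above every young male library and in 2 every one lay below, where 23.7% and 22.6% of all tested genes did so. The filter itself depends on the groups present: 9 tested members (Ccl3, Ccl7, Ccl9, Ccr1, Ccr7, Cxcl1, Cxcl6, Cxcr6 and Xcl1) would not have passed it without the old male libraries. Among the other 28, 16 rose and 2 fell. The split by class, the median and the counts of non-overlap above were taken with these 9 included. Of the 9, the receptors Ccr1, Ccr7 and Cxcr6 and the ligands Ccl7, Cxcl1 and Cxcl6 rose.

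Most tested marker genes of leukocytes rose with the family in old males, while those of other cell types moved in either direction. Of all tested genes 25.3% rose and 24.6% fell in old against young males. Summed macrophage and monocyte markers (16 of 17 counted) were at 565 to 980 CPM in old males and 145 to 280 CPM in the other 12 libraries, and 15 of 15 tested rose in old against young males. Summed T and NK cell markers were at 73.1 to 108 CPM in old males and 12.9 to 26.02 CPM elsewhere (13 of 14 tested rose), with Gzmb listed at 0 counts in every group. B and plasma cell markers summed to 156 to 340 CPM in old males and 12.9 to 35.5 CPM elsewhere (7 of 7 tested rose), and the B cell gene Ms4a1 had 0 counts in young males. Dendritic cell markers summed to 48.7 to 70.8 CPM in old males and 11.8 to 22.6 CPM elsewhere (7 of 7 tested rose), with Siglech at 0 counts outside old males. Neutrophil markers stayed low in all libraries, at 3.75 to 4.54 CPM summed in old males and 0.424 to 1.83 CPM elsewhere. Of the 10 neutrophil genes, 1 passed the low-count filter, and it rose. Elane was at 0 counts in old males, and Camp, Elane, Mpo and Retnlg were at 0 in young males. Proximal tubule markers, which define the labelled tissue, were abundant in all 16 libraries, at 7774 to 8287 CPM summed in old males and 10880 to 15389 CPM elsewhere, and in males with age 8 of 12 fell and 3 rose. Fibroblast and pericyte markers summed to 416 to 494 CPM in old males and 209 to 246 CPM in young males (4 of 9 rose and 1 fell), and to 227 to 315 CPM in old and 268 to 507 CPM in young females. Endothelial markers summed to 289 to 379 CPM in old males and 347 to 388 CPM in young males (4 of 9 fell). Podocyte markers summed to 272 to 405 CPM in old males and 319 to 523 CPM in young males (4 of 8 fell). The part of these cell types in the chemokine results was not tested. In bulk tissue, more cells of a type and more RNA per cell cannot be told apart.

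**Figure D1:**
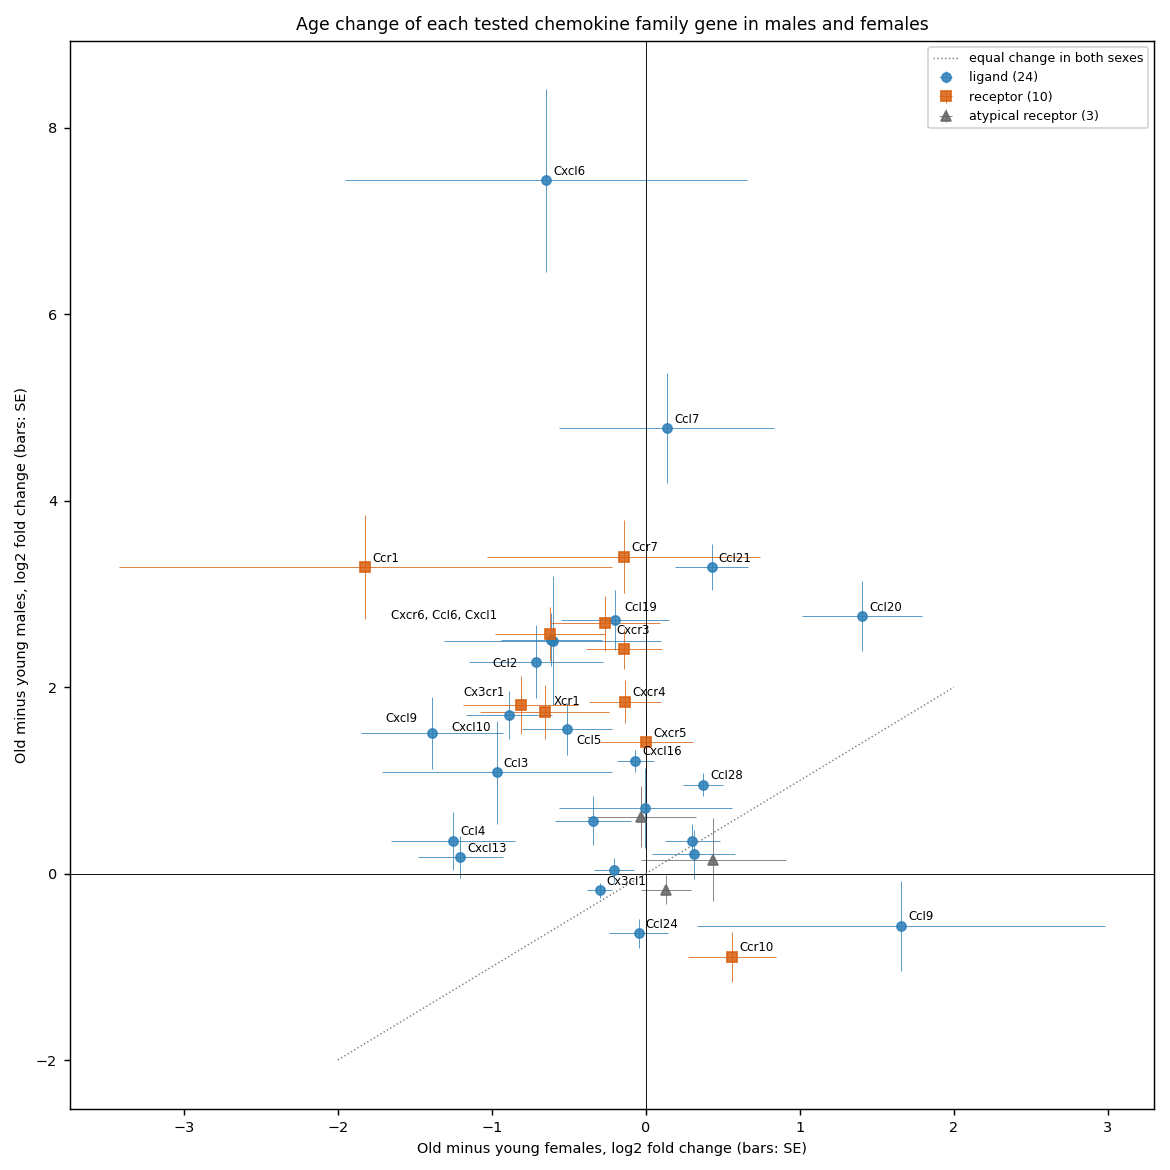
Log2 fold change of old over young rats in females (x axis) and in males (y axis) for the 37 tested members, with bars of 1 SE on each axis and a dotted line of equal change. Of the 37 points 32 lie above 0 on the male axis and 11 on the female axis, Ccl9 and Ccl20 lie farthest to the right, and Ccr10, Ccl24, Ccl9, Cx3cl1 and Ackr3 lie below 0 for males; the height of Cxcl6 depends on the fitted prior because young males had 0 counts.

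The homing axis of lymphoid tissue changed in old males on the ligand and the receptor side. Ccl21 and Ccl19 guide dendritic cells and naive T cells that carry their shared receptor Ccr7, and Ackr4 is an atypical receptor that clears both ligands. Ccl21 was at 49.4, 49.3, 54.1 and 59.2 CPM in old males and at 5.5, 8.11, 3.93 and 4.39 CPM in young males, and at 8.48, 12.2, 18.2 and 13.2 CPM in old females and 6.0, 13.1, 10.5 and 9.33 CPM in young females. All 4 old male libraries stood above the other 12, and the female ages overlapped. Ccl21 rose 9.75-fold in old against young males (log2 fold change 3.29 ± 0.25 SE, adjusted p = 4.69e-08). Ccl19 was at 20.8, 14.1, 16.6 and 13.4 CPM in old males and at 2.68, 3.97, 1.63 and 1.71 CPM in young males, and at 1.27, 1.99, 4.28 and 4.29 CPM in old females and 2.75, 3.5, 4.79 and 2.66 CPM in young females. Old males were again above all other libraries, with no separation among the rest. Ccl19 rose 6.58-fold in males (log2 fold change 2.72 ± 0.32 SE, adjusted p = 3.96e-06). Ccr7 was nearly silent outside old males. Ccr7 was at 1.41, 1.73, 1.63 and 1.32 CPM in old males and at 0.206, 0.0795, 0.112 and 0.162 CPM in young males, and at 0, 0.0641, 0.138 and 0 CPM in old females and 0, 0.0834, 0.0725 and 0.0681 CPM in young females. Its fitted change in males was 10.6-fold (log2 fold change 3.40 ± 0.39 SE, adjusted p = 2.87e-06). Against old females, where Ccr7 had few counts, the ratio of CPM was 32.2 with a 95% counting interval of 10.8 to 158. Ackr4 was at 0.683, 0.683, 0.577 and 0.824 CPM in old males and at 0.344, 1.11, 0.73 and 0.244 CPM in young males, and at 1.06, 0.577, 1.04 and 0.484 CPM in old females and 0.651, 0.584, 0.943 and 0.136 CPM in young females. Levels of Ackr4 overlapped in all 4 groups, and it did not pass in either sex (0.15 ± 0.45 SE, adjusted p = 0.803 in males). Lymphatic endothelial markers, a known source of Ccl21, summed to 49.6 to 57.9 CPM in old males, 25.5 to 31.9 CPM in young males, 35.2 to 44.2 CPM in old females and 45.6 to 50.04 CPM in young females, and 4 of 6 rose in males. Lymphoid tissue markers summed to 109 to 124 CPM in old males and 77.9 to 84.98 CPM elsewhere. Their 4 tested genes rose in males, while the high endothelial venule gene Madcam1 was at 0 counts in old males. Of all tested genes 25.3% rose in males with age. The part of these cells in the result was not tested.

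The interferon-inducible ligands Cxcl9, Cxcl10 and Cxcl11 act through Cxcr3, a receptor of activated T cells and NK cells. Cxcr3 was at 5.22, 4.47, 6.11 and 4.37 CPM in old males and at 0.55, 0.715, 1.01 and 0.812 CPM in young males, and at 0.353, 0.705, 1.04 and 1.09 CPM in old females and 0.579, 1.33, 1.38 and 0.613 CPM in young females. Old males lay above every other library, and the other 3 groups overlapped. Cxcr3 rose 6.43-fold in males (log2 fold change 2.69 ± 0.30 SE, adjusted p = 1.88e-06). Cxcl10 was at 13.6, 15.6, 30.5 and 27.2 CPM in old males and at 6.4, 6.83, 6.01 and 7.39 CPM in young males, and at 3.25, 3.27, 6.63 and 5.14 CPM in old females and 7.96, 10.9, 7.55 and 7.56 CPM in young females. Old males were highest, and old females all lay below young females. Cxcl10 rose 3.26-fold in males (log2 fold change 1.70 ± 0.26 SE, adjusted p = 4.19e-05), and in females the change was -0.89 ± 0.28 SE, adjusted p = 0.0761. Cxcl9 was at 2.63, 1.86, 2.89 and 2.31 CPM in old males and at 0.206, 0.795, 0.954 and 1.46 CPM in young males, and at 0.778, 0.192, 0.414 and 0.544 CPM in old females and 1.01, 1.75, 1.6 and 0.749 CPM in young females. Its old male values stood above all others by a narrow margin. Cxcl9 rose 2.85-fold in males (log2 fold change 1.51 ± 0.39 SE, adjusted p = 0.00383), but with DS libraries alone, which leaves 1 old male library, its adjusted p was 0.104. Cxcl11 was at 9.02, 9.15, 10.4 and 13.6 CPM in old males and at 6.95, 8.82, 6.85 and 10.2 CPM in young males, and at 9.97, 10.4, 6.56 and 7.74 CPM in old females and 7.88, 5.92, 6.6 and 7.63 CPM in young females. Old and young males overlapped for Cxcl11, as did old males and old females, while every old male library lay above the young females. Cxcl11 did not pass in males (0.35 ± 0.17 SE, adjusted p = 0.1), though without young male replicate 4 its adjusted p was 0.0432.

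The stretches before the starts of 4 CXC ligand genes are shown because their genes share a motif but differ in how they moved. Sequences are the 250 bases before the gene start in RefSeq's rat assembly GRCr8, read on the gene's strand, and this build differs from the Rnor_6.0 named for the counts. Capitals mark matches to 9 letters of the NF-kappaB motif (GGANNTTCC, or GGAANNTCC for the other strand) or of the interferon response motif (GAAANNGAA, or TTCNNTTTC). Cxcl1 lies at chr14:17479322-17479571, minus strand, Cxcl6 at chr14:17596418-17596667, minus strand, Cxcl10 at chr14:15988816-15989065, plus strand, and Cxcl11 at chr14:15973478-15973727, plus strand.
Cxcl1: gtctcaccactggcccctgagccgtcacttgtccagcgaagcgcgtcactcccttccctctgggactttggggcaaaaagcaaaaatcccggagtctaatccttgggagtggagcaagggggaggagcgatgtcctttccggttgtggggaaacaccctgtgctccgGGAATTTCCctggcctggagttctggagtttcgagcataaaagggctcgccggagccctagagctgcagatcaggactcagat
Cxcl6: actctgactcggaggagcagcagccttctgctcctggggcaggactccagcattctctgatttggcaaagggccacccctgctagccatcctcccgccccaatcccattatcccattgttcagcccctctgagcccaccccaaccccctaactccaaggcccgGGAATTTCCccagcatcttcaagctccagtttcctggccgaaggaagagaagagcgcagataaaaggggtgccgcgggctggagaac
Cxcl10: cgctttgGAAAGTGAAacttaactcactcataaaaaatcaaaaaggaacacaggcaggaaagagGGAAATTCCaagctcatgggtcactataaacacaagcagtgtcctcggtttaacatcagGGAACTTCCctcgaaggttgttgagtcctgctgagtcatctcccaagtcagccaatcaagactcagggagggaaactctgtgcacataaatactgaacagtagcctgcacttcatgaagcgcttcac
Cxcl11: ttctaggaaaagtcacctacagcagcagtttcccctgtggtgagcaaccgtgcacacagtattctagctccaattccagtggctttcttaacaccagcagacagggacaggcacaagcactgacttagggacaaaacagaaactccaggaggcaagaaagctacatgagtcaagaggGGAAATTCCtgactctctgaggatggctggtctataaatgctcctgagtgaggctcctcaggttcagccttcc
Cxcl1 and Cxcl6 carry the letters GGAATTTCC beginning 83 and 87 bases before the start. Cxcl10 carries GGAAATTCC at 186 and GGAACTTCC at 127 bases before the start, and GAAAGTGAA at 243 bases before it. Cxcl11 carries GGAAATTCC at 73 bases before the start. At these sites the NF-kappaB letters match on both strands, and a gene was counted once. Promoters of 35 members were found by symbol, and those of 9 members, among them Ccl2, Ccl3, Ccl4, Ccl5, Ccr7, Ccr9, Ccr10 and Cxcr5, were not. Over 250 bases before to 50 after the start, 7 of the 35 held the NF-kappaB letters (20% of them, beside 4.09% of all 33469 promoters of the same length). Ccl7, Ccl24 and Ccr3 were the other 3. The letters were in 4 of 17 members that rose in old males and in 3 of the other 18. The interferon response letters were in 2 of 35, Cxcl10 and Ccl19 (5.71%, beside 9.71% of all promoters). A match of letters is a description of the sequence and not a site of binding.

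**Figure D2:**
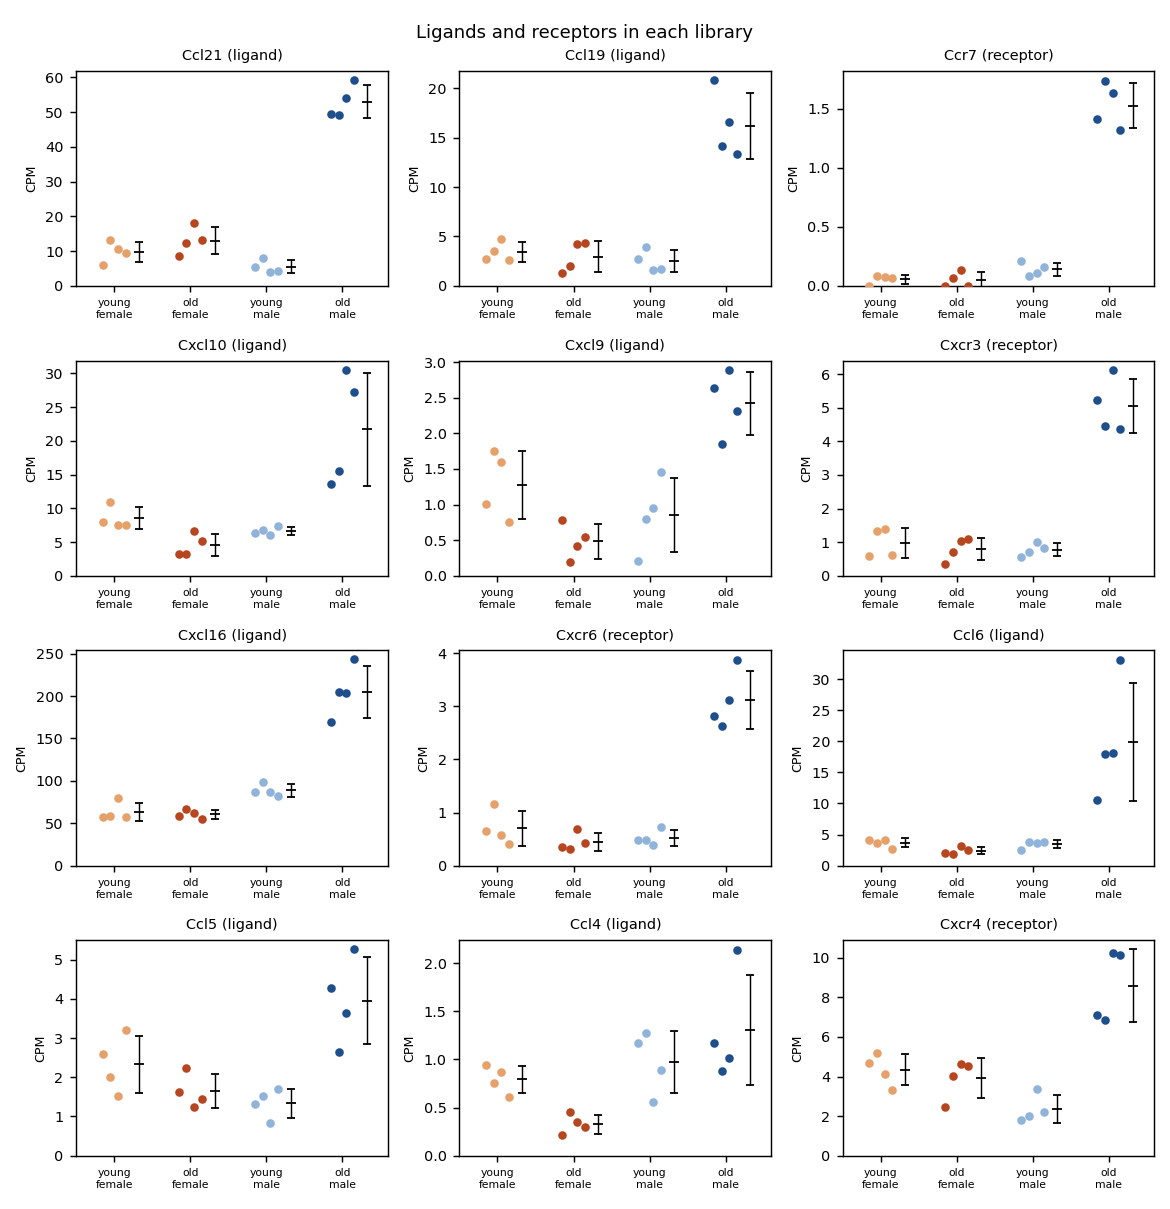
CPM of 12 ligands and receptors in each of the 16 libraries, by group, with 1 dot for a library and the mean and SD of 4 beside the dots. In all panels but those of Ccl4 and Ccl5 the 4 old male dots lie above every dot of the other groups, while Ccl4 shows its lowest dots in old females.

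Cxcl16 was the family's most abundant transcript in old males. It is a transmembrane ligand that also takes up oxidised lipoprotein, and when shed it draws T and NKT cells that carry Cxcr6. Cxcl16 was at 169, 204, 203 and 244 CPM in old males and at 86.9, 98.9, 87.3 and 81.6 CPM in young males, and at 58.8, 67.4, 62.1 and 54.5 CPM in old females and 57.9, 59.05, 79.6 and 57.8 CPM in young females. Every old male library exceeded every young male library, which in turn exceeded every female library. Cxcl16 rose 2.31-fold in males (log2 fold change 1.21 ± 0.12 SE, adjusted p = 4.66e-07), and in females the change was -0.07 ± 0.12 SE, adjusted p = 0.806. Cxcr6 was at 2.83, 2.64, 3.13 and 3.88 CPM in old males and at 0.481, 0.477, 0.393 and 0.731 CPM in young males, and at 0.353, 0.32, 0.69 and 0.423 CPM in old females and 0.651, 1.17, 0.58 and 0.409 CPM in young females. Old males stood above the rest, which overlapped. Cxcr6 rose 5.95-fold in males (log2 fold change 2.57 ± 0.29 SE, adjusted p = 2.2e-06).

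Of the ligands that draw monocytes, Ccl2, Ccl6 and Ccl7 rose in old males. Ccl2 and Ccl7 act through Ccr2 on monocytes. Ccl7 was at 2.49, 3.52, 2.82 and 7.67 CPM in old males and at 0.138, 0.0795, 0.281 and 0 CPM in young males, and at 0.495, 0.32, 0.552 and 0.121 CPM in old females and 0.579, 0.25, 0.0725 and 0.409 CPM in young females. Old males were above all other libraries, and replicate 4 was the highest of them. Ccl7 rose 27.5-fold from a very low level in young males (log2 fold change 4.78 ± 0.59 SE, adjusted p = 5.27e-06). Its log2 fold change was 5.59 without young male replicate 3 and 5.70 with DS libraries alone. Ccl2 was at 6.69 to 12.4 CPM in old males, 0.65 to 2.54 in young males, with 0.846 to 3.31 in old females and 1.16 to 4.42 in young females, and rose 4.83-fold in males (log2 fold change 2.27 ± 0.39 SE, adjusted p = 0.00015). Ccl6 and Ccl9 are rodent ligands known from mouse to act through Ccr1. Ccl6 was at 10.5, 17.97, 18.1 and 33.1 CPM in old males and at 2.54, 3.73, 3.7 and 3.82 CPM in young males, and at 2.05, 1.92, 3.11 and 2.48 CPM in old females and 4.19, 3.67, 4.14 and 2.66 CPM in young females. All old male libraries were above the rest, but they spread widely, with replicate 4 highest and replicate 1 lowest. Ccl6 rose 5.69-fold in males (log2 fold change 2.51 ± 0.28 SE, adjusted p = 2.14e-06), and in DS libraries alone, where replicate 4 is the old male library, the log2 fold change was 3.25. Ccl9 had another pattern, at 0.619 to 1.59 CPM in young males and 0.247 to 1.1 in old males, 0 to 0.276 in old females and 0 to 0.145 in young females. It did not pass in males with age (-0.56 ± 0.49 SE, adjusted p = 0.358).

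Ccr1 is a receptor of monocytes and T cells, and Ccl3, Ccl4 and Ccl5 are related inflammatory CC ligands that draw these cells. Ccr1 was at 0.975, 1.12, 1.05 and 1.15 CPM in old males and at 0, 0, 0.281 and 0.0812 CPM in young males, and at 0, 0, 0 and 0 CPM in old females and 0, 0, 0 and 0.0681 CPM in young females. The gene was detected in all old male libraries and had 0 counts in old females. Ccr1 rose 9.78-fold in males (log2 fold change 3.29 ± 0.56 SE, adjusted p = 0.000246), and in old males it was at least 21.8-fold higher than in old females, with 3 counts over the 4 libraries as the floor. The fitted rise in males rests on few counts: 5 of the 6 in young males came from replicate 3, and without it the log2 fold change was 5.05. The 3 ligands did not all rise with it. Ccl5 was at 4.29, 2.64, 3.63 and 5.28 CPM in old males and at 1.31, 1.51, 0.842 and 1.71 CPM in young males, and at 1.63, 2.24, 1.24 and 1.45 CPM in old females and 2.6, 2.0, 1.52 and 3.2 CPM in young females. Old males exceeded young males and old females but overlapped young females. Ccl5 rose 2.93-fold in males (log2 fold change 1.55 ± 0.28 SE, adjusted p = 0.000254). Ccl4 was at 1.17, 0.879, 1.02 and 2.14 CPM in old males and at 1.17, 1.27, 0.561 and 0.894 CPM in young males, and at 0.212, 0.449, 0.345 and 0.302 CPM in old females and 0.94, 0.751, 0.871 and 0.613 CPM in young females. Old and young males overlapped, and old females lay below every other library. Ccl4 did not pass in males (0.35 ± 0.31 SE, adjusted p = 0.368) or in females (-1.25 ± 0.40 SE, adjusted p = 0.0823). Ccl3 was at 1.27, 0.415, 0.917 and 1.73 CPM in old males and at 0.413, 0.556, 0.168 and 0.812 CPM in young males, and at 0, 0.192, 0.276 and 0.363 CPM in old females and 0.868, 0.334, 0.218 and 0.272 CPM in young females. Its male ages overlapped, and the change did not pass (1.09 ± 0.55 SE, adjusted p = 0.112), but without old male replicate 2 the adjusted p was 0.0362.

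Ccl24 attracts eosinophils through Ccr3. Ccl24 was highest in young males, at 6.23 to 7.08 CPM, and was at 3.6 to 5.07 in old males, 1.7 to 2.6 in old females and 1.58 to 2.76 in young females. It fell 1.56-fold in old against young males (log2 fold change -0.64 ± 0.16 SE, adjusted p = 0.00259), but with library totals in place of TMM factors the adjusted p was 0.08, and with DS libraries alone 0.0705. Ccr3 was too low to test, with 38 counts in old males, 0 in young males, with 5 in old females and 2 in young females.

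The neutrophil-attracting ligands were low in every group. Cxcl6, called LIX in rat, and Cxcl1 act through Cxcr2. Cxcl6 was at 0.634, 1.42, 1.05 and 2.06 CPM in old males and had 0 counts in all 4 young male libraries. It was at 0 to 0.0641 CPM in old females and 0 to 0.167 in young females. Old males were at least 23.5-fold higher than young males, with 3 counts over the 4 libraries as the floor, and the edgeR adjusted p was 2.93e-05. Cxcl1 was at 1.51, 0.659, 0.883 and 0.66 CPM in old males and 0.138, 0.0795, 0.168 and 0.244 in young males, and overlapped old males in females, at 0 to 0.828 CPM when old and 0.204 to 0.871 when young. Cxcl1 rose 5.66-fold in males (log2 fold change 2.50 ± 0.70 SE, adjusted p = 0.00674), but with DS libraries alone the adjusted p was 0.169. Cxcr2 was too low to test, with 22 counts in old males, 1 in young males, with 6 in old females and 3 in young females. Pf4, a platelet and macrophage CXC chemokine under another symbol, was at 0.392 ± 0.328 CPM in young males and 2.73 ± 0.954 CPM in old males (SD, n = 4 each) and rose (log2 fold change 2.76 ± 0.46 SE, edgeR adjusted p = 0.000116). Ppbp, a platelet chemokine, had 0 counts in all 8 female libraries.

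Cxcl12, the constitutive stromal ligand, did not pass with age in either sex, and its signalling receptor Cxcr4 rose in old males. Cxcl12 was at 119, 92.1, 102 and 72.3 CPM in old males and at 95.5, 91.5, 93.6 and 95.6 CPM in young males, and at 89.2, 122, 99.8 and 85.04 CPM in old females and 104, 131, 121 and 101 CPM in young females. All 4 groups were close, with overlapping ages in each sex. The change of Cxcl12 was 0.04 ± 0.13 SE, adjusted p = 0.832 in males and -0.21 ± 0.13 SE, adjusted p = 0.419 in females. Cxcr4 was at 7.12, 6.88, 10.3 and 10.1 CPM in old males and at 1.79, 1.99, 3.37 and 2.19 CPM in young males, and at 2.47, 4.04, 4.62 and 4.53 CPM in old females and 4.7, 5.17, 4.14 and 3.34 CPM in young females. Old males were above all other libraries, and young males were low. Cxcr4 rose 3.6-fold in males (log2 fold change 1.85 ± 0.23 SE, adjusted p = 6.72e-06). Ackr3, the scavenging receptor of Cxcl12 and Cxcl11, was at 51.2 to 67.7 CPM in old males, 49.3 to 79.3 in young males, with 39.2 to 62.8 in old females and 38.8 to 52.1 in young females. It did not pass with age in males (-0.17 ± 0.16 SE, adjusted p = 0.393) or females (0.13 ± 0.16 SE, adjusted p = 0.706). With library totals in place of TMM factors, which moves the median of all genes to 0.32 in males, Cxcl12 had an adjusted p of 0.024 and a log2 change of 0.36, close to that shift.

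In 3 of the near-exclusive pairs the receptor rose in old males and the ligand did not pass. Cxcl13 draws B cells through Cxcr5. Cxcl13 was at 6.48, 6.81, 7.13 and 9.81 CPM in old males and at 5.64, 6.99, 7.52 and 6.25 CPM in young males, and at 0.919, 1.67, 2.35 and 2.48 CPM in old females and 3.98, 6.0, 4.72 and 2.66 CPM in young females. Male ages overlapped, and old females lay below all other libraries. Cxcl13 did not pass in males (0.17 ± 0.23 SE, adjusted p = 0.55) but with the library name prefix as a covariate its adjusted p was 0.041. Cxcr5 was at 1.85, 1.22, 1.09 and 1.4 CPM in old males and at 0.757, 0.556, 0.281 and 0.487 CPM in young males, and at 1.2, 0.833, 0.621 and 1.09 CPM in old females and 1.01, 0.667, 0.943 and 1.09 CPM in young females. Old males exceeded young males and overlapped the females. Cxcr5 rose 2.66-fold in males (log2 fold change 1.41 ± 0.30 SE, adjusted p = 0.00104), with an adjusted p of 0.0543 in DS libraries alone. Cx3cl1, or fractalkine, is a membrane-bound ligand for Cx3cr1 on monocytes and tissue macrophages. Cx3cl1 was at 109, 105, 104 and 91.02 CPM in old males and at 114, 117, 111 and 121 CPM in young males, and at 53.6, 70.00, 72.8 and 65.9 CPM in old females and 78.5, 83.4, 81.6 and 79.4 CPM in young females. Males were above females at both ages, and within each sex the old libraries lay below the young ones. In males this order held for TMM-scaled CPM. The median deposited RPKM, scaled by library totals, was 33.03 in young and 37.97 in old males. Over the alternatives the log2 change of Cx3cl1 in males ran from -0.36 to 0.15. Cx3cl1 did not pass in males (-0.18 ± 0.08 SE, adjusted p = 0.0745), though in DS libraries alone the adjusted p was 0.0102. Cx3cr1 was at 4.24, 5.47, 3.91 and 4.7 CPM in old males and at 1.51, 1.83, 0.954 and 0.975 CPM in young males, and at 0.353, 0.897, 1.59 and 0.786 CPM in old females and 2.02, 1.92, 1.74 and 0.749 CPM in young females. Old males were above all others, and its rise in males was 3.5-fold (log2 fold change 1.81 ± 0.32 SE, adjusted p = 0.000168). Xcl1, made by T and NK cells, was at 0.815 to 1.48 CPM in old males and 0.318 to 0.894 in young males and did not pass (0.70 ± 0.43 SE, adjusted p = 0.184). Its receptor Xcr1, a mark of cross-presenting dendritic cells, was at 2.22 to 3.53 CPM in old males and 0.674 to 1.11 in young males and rose 3.32-fold (log2 fold change 1.73 ± 0.29 SE, adjusted p = 0.000119).

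Among ligands of epithelial surfaces, Ccl20 and Ccl28 rose in old males. Ccl20 acts through Ccr6 on memory T cells and B cells. Ccl20 was at 5.22, 2.9, 5.98 and 6.84 CPM in old males and at 0.413, 0.636, 0.898 and 1.06 CPM in young males, and at 1.06, 3.01, 3.87 and 2.48 CPM in old females and 0.723, 1.33, 0.871 and 1.02 CPM in young females. Old males were above both young groups, and old females overlapped old males and young females. Ccl20 rose 6.79-fold in males (log2 fold change 2.76 ± 0.38 SE, adjusted p = 1.59e-05). Ccr6 was too low to test, at 0.495 to 1.0 CPM in old males, 0 to 0.0812 in young males, with 0 to 0.212 in old females and 0 to 0.25 in young females. Ccl28 and Ccl27 are ligands of Ccr10. Ccl28 was at 8.78, 8.54, 10.2 and 9.4 CPM in old males and at 4.68, 5.88, 4.27 and 4.22 CPM in young males, and at 5.44, 7.37, 5.45 and 6.35 CPM in old females and 4.48, 4.67, 4.93 and 4.97 CPM in young females. Old males were above all others, and old females lay above young females. Ccl28 rose 1.94-fold in males (log2 fold change 0.96 ± 0.13 SE, adjusted p = 1.12e-05). Ccr10 was at 3.85, 3.56, 2.92 and 6.6 CPM in old males and at 7.29, 8.98, 5.28 and 8.94 CPM in young males, and at 4.17, 5.77, 6.14 and 4.17 CPM in old females and 1.88, 3.17, 4.72 and 3.95 CPM in young females. Young males were highest as a group, and of the old males, replicate 4, the DS library, fell among them. Ccr10 fell 1.86-fold in males (log2 fold change -0.89 ± 0.27 SE, adjusted p = 0.0104), the opposite direction to Ccl28. That call was lost with library totals (adjusted p = 0.0685), with the prefix as a covariate (0.168) and in DS libraries alone (0.732). Ccl27 was at 1.48 to 2.29 CPM in old males, 0.975 to 2.3 in young males, with 2.05 to 3.14 in old females and 1.59 to 2.47 in young females and did not pass in males (0.21 ± 0.27 SE, adjusted p = 0.55).

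The remaining members were low or did not pass with age. Cxcl14, an epithelial chemokine, was at 1.02 to 1.73 CPM in old males and 0.487 to 1.19 in young males (0.57 ± 0.26 SE, adjusted p = 0.0831), and without old male replicate 1 its adjusted p was 0.0363. Ccrl2, an atypical receptor that binds chemerin, was at 1.63 to 2.49 CPM in old males and 0.487 to 2.15 in young males (0.61 ± 0.33 SE, adjusted p = 0.13), and without young male replicate 2 its adjusted p was 0.0376. Ccl17 and Ccl22, dendritic cell and macrophage ligands of Ccr4, were too low to test. Ccl17 had 65 counts in old males, 16 in young males, with 7 in old females and 12 in young females, and Ccl22 had 74, 4, 5 and 2 counts in the same order. Ccr9, the receptor that guides T cells to the gut, had 34 counts in old males, 12 in young males, with 3 in old females and 6 in young females. Ackr2, which clears inflammatory CC ligands, had 20 counts in old males, 0 in young males, with 3 in old females and 1 in young females. The 7 untested members were highest as counts in old males, where 2 of the 4 libraries were deeper than any library elsewhere, and no test was made. The minimum of 20 summed counts included the old male libraries. Without them Ackr2, Ccr3, Cxcr2, Ccl22 and Ccr6 would not have reached it, nor would the tested Ccr1, Ccr7 and Cxcl6. That these genes were highest in old males thus follows in part from how members were chosen.

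Ligands and receptors were set side by side in 39 known pairs, of which 23 had both members tested. In old against young males both partners rose in 8 pairs, among them Ccl5 and Ccl6 with Ccr1, Ccl19 and Ccl21 with Ccr7, Cxcl9 and Cxcl10 with Cxcr3, and Cxcl16 with Cxcr6. A single partner passed in 12 pairs, the partners moved in opposite directions in 1 pair (Ccl28 and Ccr10), and neither passed in 2 pairs. In old against young females 1 partner passed in 2 pairs (Cxcl13 of Cxcl13 and Cxcr5, and Cx3cl1 of Cx3cl1 and Cx3cr1), and neither passed in 21. Pairs share members, so these counts are not independent of each other. Ccr1, Ccr7 and Cxcr6 needed the old male libraries to pass the low-count filter. Pairs that hold them were therefore tested only because of the group in which these receptors were high. Beside these counts, 25.3% of all tested genes rose in old against young males, and no background share of pairs was computed.

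**Figure D3:**
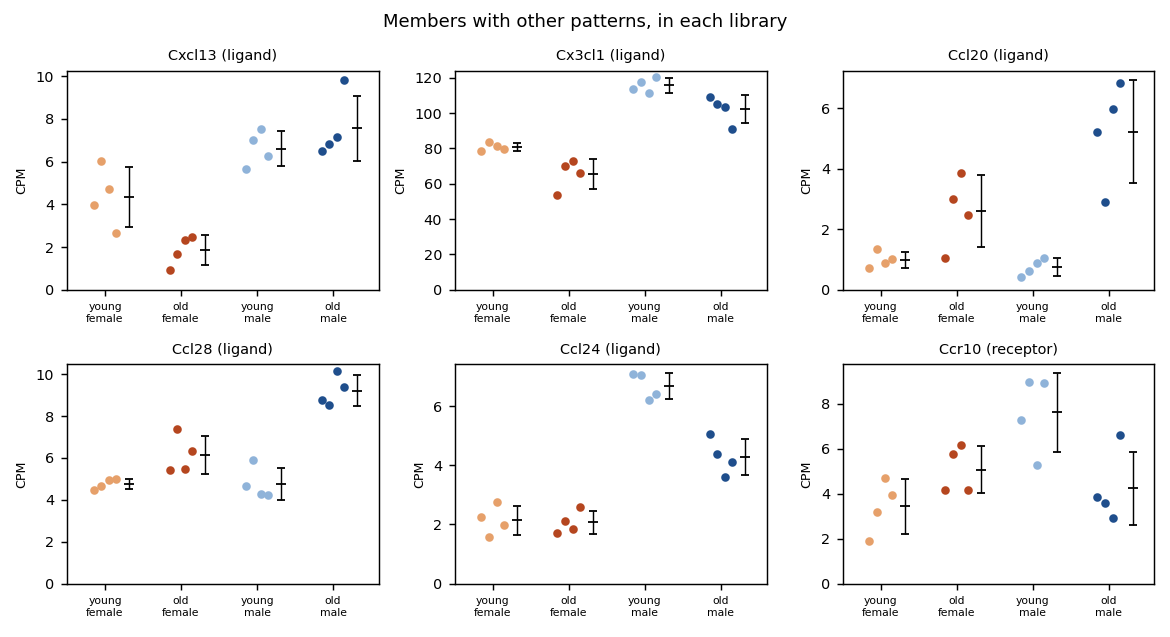
CPM of Cxcl13, Cx3cl1, Ccl20, Ccl28, Ccl24 and Ccr10 in each of the 16 libraries, by group, with 1 dot for a library and the mean and SD of 4 beside the dots. Cxcl13 is lowest in old females, Cx3cl1 is lower in the old libraries of each sex, and Ccl24 and Ccr10 are highest in young males.

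In females few members differed with age, and the shares were close to the background. Of the 37 tested members, 1 rose and 2 fell in old against young females (2.70% and 5.41%, where 2.54% and 3.17% of all tested genes rose and fell), and 8 had an unadjusted p under 0.05, which 20.3% of all tested genes had. The median log2 fold change was -0.20, beside 0.00025 over all genes. Ccl20 rose 2.65-fold, its values being those given above (log2 fold change 1.41 ± 0.39 SE, adjusted p = 0.044). Cxcl13 fell 2.3-fold (log2 fold change -1.20 ± 0.28 SE, adjusted p = 0.018). Cx3cl1 fell 1.23-fold (log2 fold change -0.30 ± 0.08 SE, adjusted p = 0.039). Each of the 3 calls rested on single libraries. Without young female replicate 1, 2, 3 or 4 in turn the adjusted p of Ccl20 was 0.147, 0.0643, 0.0917 and 0.0659, and without old female replicate 2, 3 or 4 it was 0.108, 0.112 and 0.0875. Cxcl13 had an adjusted p of 0.0598 without young female replicate 2 and 0.0582 without old female replicate 2. Cx3cl1 missed the threshold without young female replicate 1, 2 or 3 (adjusted p = 0.0822, 0.0907 and 0.0741) and without old female replicate 1, 2 or 4 (adjusted p = 0.075, 0.0564 and 0.0903). Adjusting for the inner medulla score, the adjusted p was 0.122 for Ccl20, 0.155 for Cxcl13 and 0.398 for Cx3cl1. Over all tested genes, 55 then rose and 45 fell, beside 366 and 456 without the score. Old female replicates 1 and 2, the OP libraries, had scores of 3.18 and 3.30, and replicates 3 and 4 had 4.93 and 5.0. Cxcl9 and Cxcl10 had log2 changes in females that did not pass (-1.39, adjusted p = 0.0917, and -0.89, adjusted p = 0.0761). Without old female replicate 3 the adjusted p of Cxcl10 was 0.0368.

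The age change itself differed between the sexes for 23 of the 37 tested members. In the age-by-sex contrast (the male log2 change with age, less the female one) 22 members were higher and 1 was lower (59.5% and 2.70%, where 19.4% and 19.3% of all tested genes were). Without the 9 members that needed the old male libraries to pass the low-count filter, 17 of 28 were higher and 1 lower. The median over all 37 was 1.98, beside -0.012 over all genes. Among the smallest p-values were those of Ccl21 (2.86 ± 0.34 SE, adjusted p = 1.16e-05), Cxcl16 (1.28 ± 0.17 SE, adjusted p = 2.27e-05), Ccl6 (3.12 ± 0.43 SE, adjusted p = 4.04e-05), Cxcr6 (3.19 ± 0.47 SE, adjusted p = 6.56e-05) and Cxcl10 (2.59 ± 0.38 SE, adjusted p = 6.61e-05). Ccr10 was the member with a lower contrast (-1.45 ± 0.39 SE, adjusted p = 0.00758), which DS libraries alone did not give (adjusted p = 0.295). Cxcl13 and Ccl4 passed here (1.38 ± 0.36 SE, adjusted p = 0.00593, and 1.60 ± 0.51 SE, adjusted p = 0.0197) although neither passed with age in males. Ccl20, which passed in each sex, did not pass in this contrast (1.36 ± 0.56 SE, adjusted p = 0.0669), and without old female replicate 3 or old male replicate 2 its adjusted p was 0.0324 and 0.0241. Calls of 3 low genes rested on single libraries. Cxcl6 had an adjusted p of 0.00893, and 0.07 without young female replicate 2. Cxcl1 had 0.0225, and 0.0674 without young female replicate 3. Ccr7 had 0.0238, and 0.0761, 0.0684, 0.0652 and 0.0502 without young female replicate 2, 3 or 4 or old female replicate 4.

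Young males and young females differed in 10 members, in both directions. Of the 37, 6 were higher and 4 lower in young males (16.2% and 10.8%, where 16% and 15.7% of all tested genes were), so the shares were close to or below the background, and the median difference was -0.11. Higher in young males were Ccl24 (3.11-fold, 1.64 ± 0.17 SE, adjusted p = 2.32e-06), Cx3cl1 (1.43-fold, 0.52 ± 0.08 SE, adjusted p = 0.000112), Cxcl16 (1.39-fold, 0.48 ± 0.12 SE, adjusted p = 0.00499), Ccr10 (2.2-fold, 1.14 ± 0.28 SE, adjusted p = 0.00526), Ackr3 (1.38-fold, 0.47 ± 0.16 SE, adjusted p = 0.0363) and Ccl9. Ccl9 was seen in 1 young female library and in all 4 of young males, with a ratio of 30.3 and a 95% counting interval of 8.06 to 256. Lower in young males were Cxcl14 (2.14-fold, -1.09 ± 0.26 SE, adjusted p = 0.00457), Cxcr4 (1.82-fold, -0.86 ± 0.25 SE, adjusted p = 0.0136), Ccl21 (1.79-fold, -0.84 ± 0.26 SE, adjusted p = 0.0211) and Ccl5 (1.78-fold, -0.83 ± 0.30 SE, adjusted p = 0.0463). The inner medulla score, 4.85 to 6.19 in young females and 2.93 to 4.02 in young males, did not overlap between these groups. With that score as a covariate 2 of the 10 passed, Ccl24 and Cx3cl1. Over all tested genes, 760 were then higher and 671 lower in young males, beside 2308 and 2266 without the score. The loss of calls was thus not particular to the members. The part of the cut in the other differences was not tested further. Leaving out single libraries ended the calls of Ackr3 without young female replicate 1, 2 or 4 or young male replicate 2, 3 or 4 (adjusted p = 0.0672, 0.057, 0.105, 0.101, 0.0529 and 0.112). It ended those of Ccl21 without young female replicate 2 or young male replicate 3 or 4 (0.0707, 0.0764 and 0.0578). For Ccl5 the adjusted p was 0.0982, 0.0513 and 0.149 without young female replicate 1, 2 or 4, and 0.0839, 0.0614 and 0.15 without young male replicate 1, 2 or 3.

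Old males and old females differed in most of the family. Of the 37 tested members 28 were higher in old males and 0 lower (75.7% higher, where 25.5% of all tested genes were higher and 23.8% lower). At an unadjusted p under 0.05, edgeR also gave 28 members in either direction, all of them higher, where 28.4% of all tested genes were higher. By adjusted p, DESeq2 gave 28 members higher and 0 lower. The 9 members that needed the old male libraries to pass the low-count filter are all among the 28 higher ones, and 19 of the other 28 tested members were higher. The median difference was 1.87. Receptors absent or rare in old females are given as bounds or ratios, as for Ccr1 and Ccr7 above, and the ligand Cxcl6 had a ratio of 37.5 with a 95% counting interval of 10.2 to 313. Xcr1 was 7.86-fold higher in old males (2.97 ± 0.33 SE, adjusted p = 1.67e-06), Ccl6 8.21-fold (3.04 ± 0.29 SE, adjusted p = 3.56e-07), Cxcr6 6.82-fold (2.77 ± 0.29 SE, adjusted p = 9.16e-07), Cxcl16 3.38-fold (1.76 ± 0.12 SE, adjusted p = 8.42e-09) and Cxcl13 3.99-fold (2.00 ± 0.26 SE, adjusted p = 8.14e-06). Of the 10 tested ligands that had not passed with age in males, 6 were higher in old males than in old females, namely Cxcl13, Ccl3 (2.19 ± 0.62 SE, adjusted p = 0.0079), Ccl4 (1.87 ± 0.36 SE, adjusted p = 0.00042), Ccl9 (2.44 ± 0.70 SE, adjusted p = 0.00814), Cx3cl1 (0.64 ± 0.08 SE, adjusted p = 5.59e-06) and Xcl1 (1.26 ± 0.45 SE, adjusted p = 0.0278). Ccl27, Cxcl11, Cxcl12 and Cxcl14 did not pass (log2 differences of -0.37, 0.27, -0.03 and -0.18). The comparisons share libraries with those above, so their values stand side by side and are not independent. Cxcl1 had the largest adjusted p among the 28, 0.0434, which rose to between 0.0671 and 0.135 without old female replicate 1, 2 or 4 or old male replicate 1 or 3. Its log2 difference of 1.53 became 2.55 without old female replicate 3. Xcl1 had an adjusted p of 0.0786 without old male replicate 2 and 0.0621 without old male replicate 4, and Ccl20, at 0.017 with all libraries, had 0.0522 without old male replicate 3.

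Levels of different genes can be compared per length with the RPKM values that the authors deposited. These are scaled by library totals without TMM factors, so they serve to rank genes within a group. With library totals the median log2 change of all genes is 0.32 in old against young males. Differences in RPKM between groups therefore do not match the changes in CPM above. In old males the median RPKM was 136 for Cxcl16, 70.4 for Ccl21, 37.97 for Cx3cl1, 34.2 for Ackr3, 22.9 for Ccl19, 21.3 for Cxcl10 and 20.4 for Cxcl12. In young males the order began with Cxcl16 at 46.2, Cx3cl1 at 33.03, Ackr3 at 31.1 and Cxcl12 at 15.7, with Ccl21 at 5.46 and Ccl19 at 2.66. Young females had Cxcl16 at 35.7, Ackr3 at 26.9, Cx3cl1 at 25.99 and Cxcl12 at 20.98, and old females had 35.2, 27.5, 20.9 and 17.3 RPKM for the same genes. Tested signalling receptors were below these ligands, with Cxcr4 at 5.49 and Cx3cr1 at 3.73 RPKM in old males. Summed over all 44 members, the family took 651 to 741 CPM in old males, 415 to 468 in young males, with 305 to 394 in old females and 342 to 413 in young females.

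**Figure D4:**
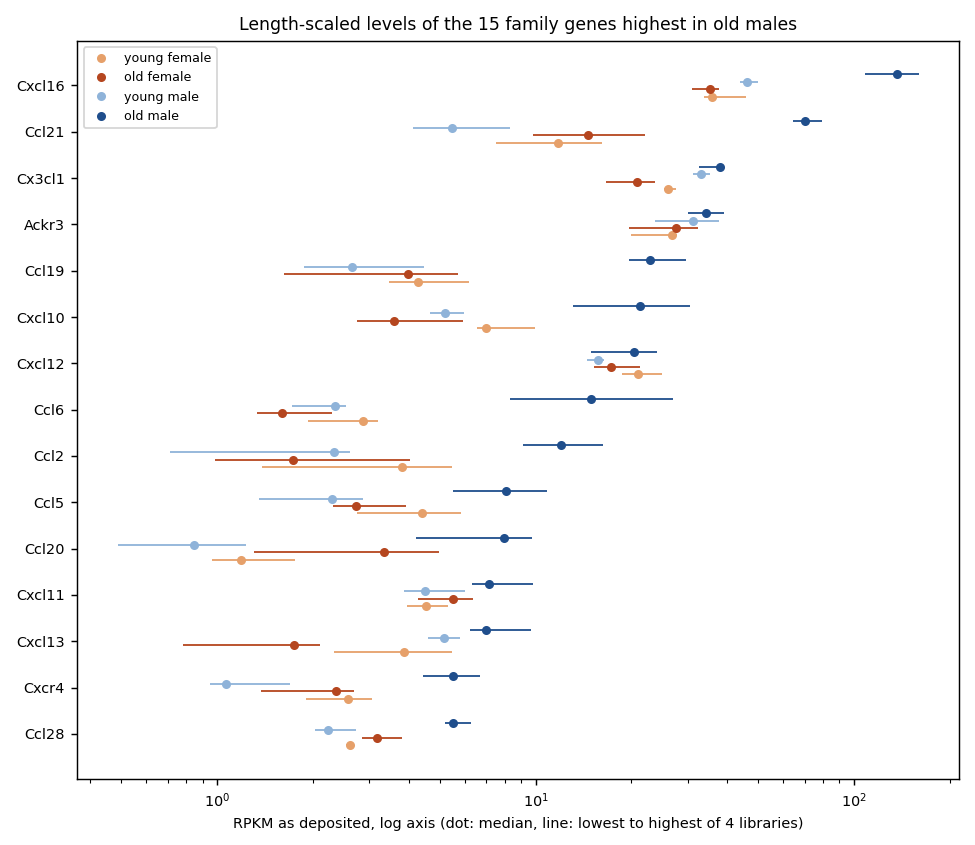
RPKM as deposited, on a log axis, of the 15 members with the highest median in old males, with a dot at the median and a line from the lowest to the highest of 4 libraries in each group. Cxcl16, Cx3cl1, Ackr3 and Cxcl12 are high in all groups, and Ccl21 and Ccl19 are highest in old males, whose range does not overlap that of another group. The RPKM are scaled by library totals without TMM factors.

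Genes that act with chemokines were followed as lists. Of 28 tested genes that carry the receptor signal or regulate it, 26 rose and 1 fell in old against young males, with a median log2 fold change of 1.25. Of all tested genes 25.3% rose and 24.6% fell in that comparison. Among them the kinase gene Lyn was at 21.2 ± 1.12 CPM in young males and 41.2 ± 1.3 CPM in old males (SD, n = 4 each) and rose (log2 fold change 0.96 ± 0.06 SE, edgeR adjusted p = 1.04e-08). Coro1a, an actin regulator of leukocytes, was at 9.16 ± 1.53 CPM in young males and 50.6 ± 5.1 CPM in old males (SD, n = 4 each) and rose (log2 fold change 2.46 ± 0.17 SE, edgeR adjusted p = 2.14e-08). Rac2, a leukocyte GTPase that drives migration, was at 6.3 ± 0.734 CPM in young males and 26.1 ± 4.54 CPM in old males (SD, n = 4 each) and rose (log2 fold change 2.04 ± 0.18 SE, edgeR adjusted p = 2.56e-07). Arrb1, a beta-arrestin, was the gene that fell. In females 3 fell, among them Coro1a and Arrb2, where 3.17% of all tested genes fell, and the median of the list was -0.20. Many of these genes are expressed by leukocytes, whose markers moved with them, and their part in the result was not tested.

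Of 8 proteases that trim or shed chemokines, 5 rose and 2 fell in males, with a median of 0.73. Beside them, 25.3% of all tested genes rose and 24.6% fell, so the share of proteases that fell was close to the background. Mmp14, a membrane-bound metalloprotease, was at 21.3 ± 1.95 CPM in young males and 48.4 ± 3.24 CPM in old males (SD, n = 4 each) and rose (log2 fold change 1.18 ± 0.10 SE, edgeR adjusted p = 9.11e-08). Mmp12, the macrophage elastase, was at 0.57 ± 0.209 CPM in young males and 7.7 ± 3.36 CPM in old males (SD, n = 4 each) and rose (log2 fold change 3.67 ± 0.36 SE, edgeR adjusted p = 5.57e-07). Mmp2, a gelatinase, was at 5.09 ± 0.842 CPM in young males and 22.7 ± 5.81 CPM in old males (SD, n = 4 each) and rose (log2 fold change 2.15 ± 0.22 SE, edgeR adjusted p = 8.28e-07). The sheddase Adam17 and the cathepsin Ctss also rose. Dpp4, which inactivates several chemokines by removing their first residues and is abundant on the proximal tubule brush border, fell with a log2 fold change of -1.09, and Mmp9 fell with -2.18; these were chosen after their values were seen. Of 19 other chemoattractant genes and receptors, 14 rose in males, where 25.3% of all tested genes rose, and the median of the list was 0.95. Il16, a ligand of Cd4, was at 2.29 ± 0.892 CPM in young males and 12.1 ± 2.37 CPM in old males (SD, n = 4 each) and rose (log2 fold change 2.42 ± 0.26 SE, edgeR adjusted p = 1.17e-06). Il34, a ligand of the Csf1 receptor made by tubule cells, was at 49.8 ± 0.979 CPM in young males and 89.7 ± 12.6 CPM in old males (SD, n = 4 each) and rose (log2 fold change 0.85 ± 0.09 SE, edgeR adjusted p = 1.53e-06). Alox5ap, which is needed to make leukotrienes, was at 0.936 ± 0.274 CPM in young males and 4.8 ± 0.811 CPM in old males (SD, n = 4 each) and rose (log2 fold change 2.34 ± 0.26 SE, edgeR adjusted p = 1.76e-06).

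The authors' deposited table lists genes past a 2-fold change and a false discovery rate of 0.05 in each pairwise comparison. For old against young males the authors' deposited table holds 21 members, all higher in old males, and 20 of them passed the test here. Ccl3 is the exception, and Cxcl1, called here past 2-fold, is not in that list. For old males against old females the authors' deposited table holds 22 members, all higher, and all passed here. Ccl9, Cxcl1 and Xcl1 were also called past 2-fold here and are not in that list. For young males against young females the authors' deposited table holds Ccl24 and Ccr10 as higher and Cxcl14 as lower in males. Ccl9, called past 2-fold here, is not in it. For old against young females the authors' deposited table holds Ccl20 as higher and Cxcl13 and Cxcl9 as lower, of which Cxcl9 did not pass here. Its log2 fold change in the authors' deposited table is 1.39 (false discovery rate 0.0126), since the age lists were deposited as young over old, and the directions with age given here reverse the deposited signs.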

How the data were processed

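RNA of kidney cortex was sequenced in 16 rat libraries after RNeasy Micro extraction and stranded TruSeq mRNA preparation, per the labels' protocols. The submitters' processing notes name Rnor_6.0 and edgeR 3.8.6 with no role, while aligner, counting program and strand setting are not given in the sources used. The authors deposited raw counts, per the file headers, and these were tested unchanged. The authors also deposited RPKM values, which equal each count scaled by the library total and the listed length plus 1 (largest relative difference 6.66e-16) and entered no test. The authors' deposited lists hold, for genes past their thresholds, a log2 fold change and an adjusted p-value (false discovery rate).

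Genes were kept with filterByExpr (14390 of 32623, holding 99.93% of the counts), scaled with TMM factors and fitted with edgeR 4.0.16 in R 4.3.3 by the quasi-likelihood test, with a mean for each of the 4 groups and 1 estimate of the spread. Tests were two-sided, adjusted by the Benjamini-Hochberg method over all genes tested, with a threshold of 0.05, and the fit was tested on simulated data. CPM are counts relative to the scaled library total, a fold change is 2 to the power of the log2 value, and intervals and floors (3 counts, 95%) cover counting error only. Library totals were 10827485 to 35957516 counts, so genes under about 1 CPM rest on few counts. Pairs of libraries within a group differed by 6.28 to 49.5 in chi-square per degree of freedom, so none is a copy of another.

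The members, the 39 ligand and receptor pairs and the gene lists were chosen with earlier results of these data known. Values in every library are given for the 12 tested members with the smallest p in old against young males and a mean of at least 1 CPM in 1 group, for members passing in old against young females, for the 6 smallest p in the age-by-sex contrast, and for their tested partners. From 3 other lists the genes with the 3 smallest p were named. Values of 1 member and 1 signalling gene are not reported here, and both stay in the counts. A planned reading of protein motifs was not made. Alternatives were RLE factors, library totals, DESeq2 1.42.0, other filters, a threshold of 0.01, only the groups compared, the replicate number as a block, a covariate for the library name prefix or the inner medulla score, the DS libraries by themselves, and leaving out single libraries.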

Additional observations from a re-analysis of the deposited data

Results flagged for a closer look

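In 8 of 148 groups of 4 libraries 1 library stood apart from the other 3, where chance gives about 1 in 20 groups. Ackr3 was at 38.8 CPM in young female replicate 4, against 50.6 to 52.1 CPM in the other 3. Ccl6 was at 2.54 CPM in young male replicate 1, against 3.7 to 3.82 CPM in the other 3. Ccl9 was at 0.145 CPM in young female replicate 1, which is 2 counts, against 0 CPM in the other 3. Cxcl10 was at 10.9 CPM in young female replicate 2, against 7.55 to 7.96 CPM in the other 3. Cxcl14 was at 0.487 CPM in young male replicate 4, against 1.1 to 1.19 CPM in the other 3. Cxcl16 was at 79.6 CPM in young female replicate 3, against 57.8 to 59 CPM in the other 3. Xcl1 was at 0 CPM in old female replicate 3, against 0.544 to 0.641 CPM in the other 3. Ccr1 was at 0.0681 CPM in young female replicate 4, which is 1 count, against 0 CPM in the other 3. 

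The age change differed between the sexes in 23 of 37 members, by the age-by-sex contrast of the edgeR fit (the male log2 change with age, less the female one). Among CC ligands it was 2.92 for Ccl19, 2.98 for Ccl2, 2.86 for Ccl21, 0.59 for Ccl28, 1.6 for Ccl4, 2.06 for Ccl5, 3.12 for Ccl6 and 4.64 for Ccl7. Among CXC ligands it was 3.1 for Cxcl1, 2.59 for Cxcl10, 1.38 for Cxcl13, 1.28 for Cxcl16, 8.08 for Cxcl6 and 2.9 for Cxcl9, the value of Cxcl6 depending on the fitted prior. Among receptors it was 3.54 for Ccr7, 2.62 for Cx3cr1, 2.95 for Cxcr3, 1.98 for Cxcr4, 1.41 for Cxcr5, 3.19 for Cxcr6 and 2.39 for Xcr1. Ccr10 had the opposite sign, at -1.45. Ccl20 and Ccr1 did not pass this contrast.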

How the results depend on the processing

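No member reversed under any alternative among those called. In old against young males 19 of 24 calls held in every alternative in which the gene was tested, and in the age-by-sex contrast 16 of 23 did. Among the calls that held, Cxcl6 was not tested in every alternative in old against young males. In old males against old females this was so for Ccl3 and Cxcl6. In old males against old females it was 23 of 28, in young males against young females 2 of 10, and in old against young females 0 of 3. Members higher and lower in old against young males were 22 and 2. The lower count was 0 with library totals and 1 with a threshold of 0.01 or the prefix as a covariate. With DS libraries alone, which leave 1 old male library, neither Ccl24 nor Ccr10 held as lower. Cxcl1, Cxcl9 and Cxcr5 did not hold as higher there, and calls of Cx3cl1 and Cxcl11 were gained. In old against young females the higher count of 1 became 0 with library totals, only the groups compared, the threshold of 0.01 or the inner medulla score. The lower count of 2 there became 4 with DESeq2, 1 with the prefix, and 0 with only the groups compared, the threshold of 0.01, DS libraries alone or the inner medulla score. In young males against young females, 4 lower became 1 with the threshold of 0.01 and 0 with the inner medulla score, and 6 higher became 2 with that score. With that score the calls over all tested genes also dropped, from 2308 to 760 higher and from 2266 to 671 lower. The single lower member of the age-by-sex contrast became 0 in DS libraries alone. The cause of these changes was not tested, except that a stricter threshold can leave only fewer calls.

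Library totals in place of TMM factors moved the median of all genes to 0.32 in old against young males and to 0.37 in the age-by-sex contrast. Members higher in old against young males were then 28 and all tested genes split into 7849 higher and 1329 lower, beside 3644 and 3545 with TMM factors. Leaving out each library in turn gave 22 to 23 higher and 2 to 2 lower in old against young males, 0 to 1 and 0 to 3 in old against young females, and 5 to 6 and 2 to 4 in young males against young females. It gave 26 to 28 and 0 to 0 in old males against old females, and 20 to 24 and 1 to 2 in the age-by-sex contrast.

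Nothing in the labels says that same-numbered libraries are pairs, so the numbers were not taken as pairs. Deviations of same-numbered libraries from their group means had correlations of -0.131 to 0.204, which do not settle whether they are paired. With the replicate number as a block, members higher and lower were 22 and 2 in old against young males, 1 and 3 in old against young females, 5 and 5 in young males against young females, 29 and 0 in old males against old females, and 23 and 1 in the age-by-sex contrast.

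Depth limits the low members: 7 could not be tested, and those under 1 CPM in most groups rest on single counts in some libraries. Age groups and library name prefixes overlap only in part, and DS libraries alone leave 1 old male library, assumed to vary like the other groups.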
